A study of Mus musculus with 6 samples.

Results

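Ribosome biogenesis and RNA polymerase I genes were followed in mouse bone marrow derived macrophages that received piceatannol or vehicle. The genes are 42 protein-coding genes chosen by symbol for their known function, and all 42 were found among the 52459 gene symbols of the count table. All 42 passed the filter on low counts, which kept 15380 genes. The data are RNA sequencing counts of 3 control and 3 piceatannol libraries. All cells were C57BL/6 bone marrow cells grown with GM-CSF, a myeloid growth factor, and the agent was added on day 7 and left overnight. Piceatannol is a plant stilbene related to resveratrol and is used to inhibit the kinase Syk. The sources used here give neither its dose nor the vehicle. Nothing in the labels says that the 3 libraries of a group are separate animals or cultures. The p-values therefore cover only the spread between these libraries, which may be technical.

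Ribosomes are built in the nucleolus, where RNA polymerase I (Pol I) transcribes a long precursor of the ribosomal RNAs. Small nucleolar ribonucleoproteins (snoRNPs) modify that precursor, a large particle called the small subunit processome folds and cuts it, and separate sets of factors carry the small and the large subunit through assembly and export. Genes of this machinery are known to be highly expressed in growing cells and to be targets of the transcription factor MYC.

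Most of the 42 genes fell with piceatannol. Of the 42, 32 fell (76.2%), 5 rose (11.9%) and 5 did not pass the threshold of an adjusted p of 0.05 (edgeR's quasi-likelihood test, Benjamini-Hochberg adjustment over all 15380 genes). Among all genes tested 38.3% fell and 38.8% rose (77% passed in either direction), so falls were more frequent among these genes than in the background and rises less frequent, which is a description with no test of the list. The median log2 fold change was -0.80 over the 42 genes and 0.01 over all genes tested. Falls of at least 2-fold were found for 12 of the 42, where the background is 16.6%, and no gene of the 42 rose 2-fold, where it is 17.5%. The piceatannol libraries lay wholly below the control libraries for 32 genes and wholly above for 5, where the background is 39.2% and 39.9%. Without control replicate 3 the number of rises was 3.

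**Figure D1:**
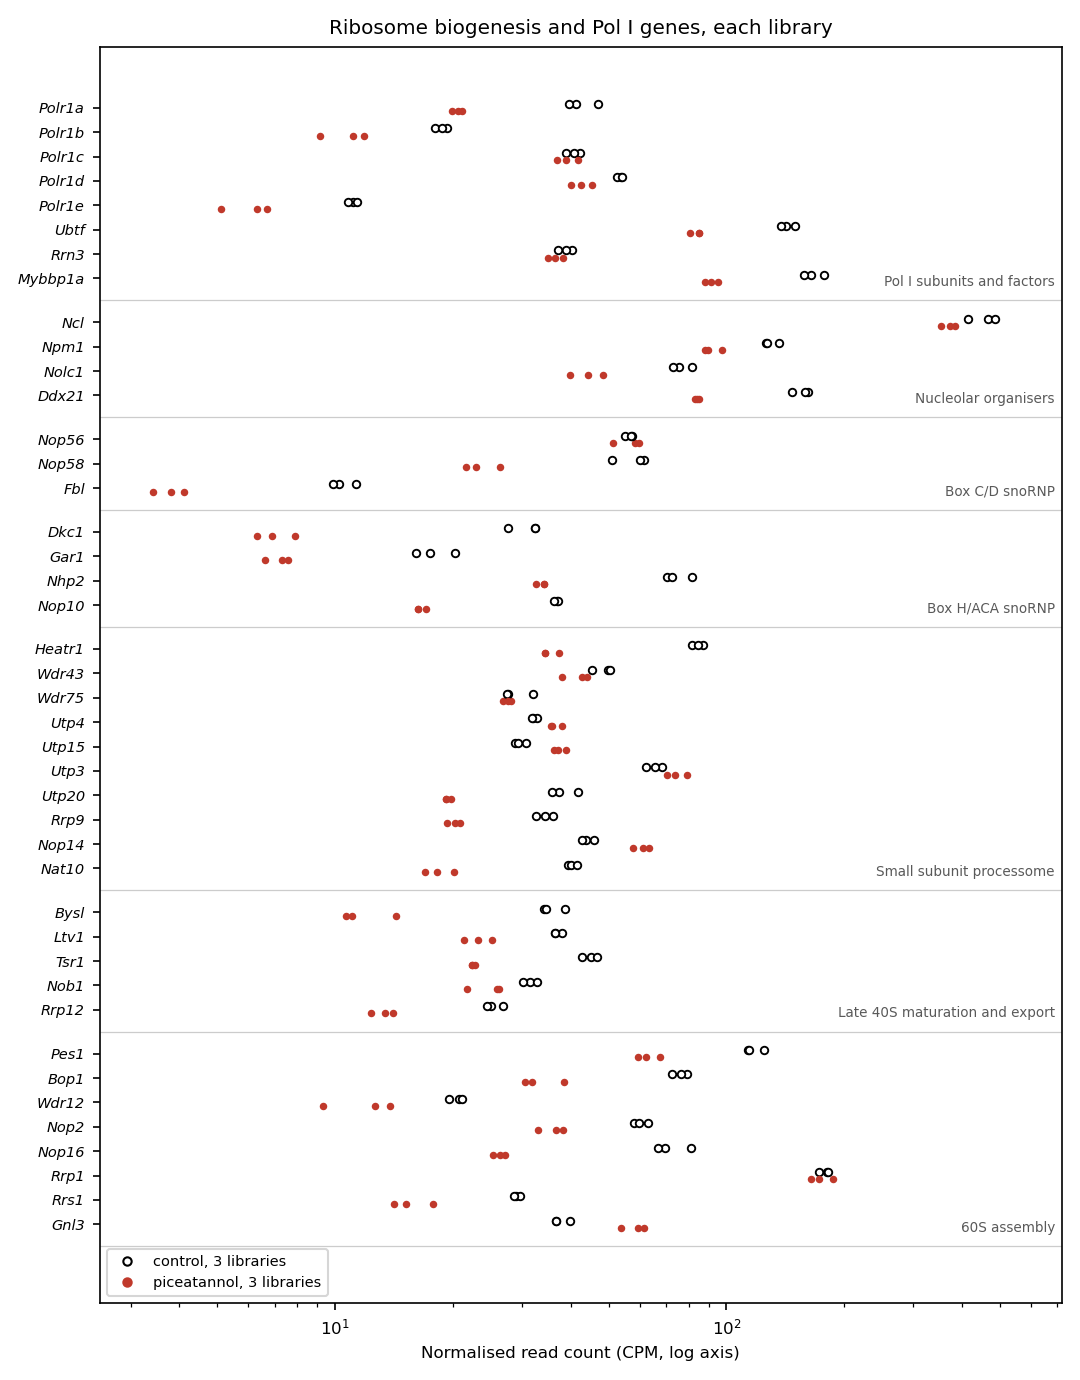
Normalised read count (CPM, counts scaled to a common library size, log axis) of each of the 42 genes in every library, ordered by role, with open circles for the 3 control and filled circles for the 3 piceatannol libraries. The groups do not overlap for 37 genes, and Gnl3, Nop14, Utp15, Utp3 and Utp4 are the 5 whose piceatannol values lie above the control values. Among all genes tested, piceatannol values lay wholly below control for 39.2% and wholly above for 39.9%.

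Summed over the 42 genes, the normalised read count was 2830, 2945 and 2715 CPM in the control libraries and 1965, 1918 and 1982 CPM in the piceatannol libraries. The group means differed 1.45-fold, and no piceatannol library reached the lowest control library. In bulk RNA, fewer cells of a type and less RNA per cell cannot be told apart. Proliferation markers also moved: all 16 on the list fell, where the background is 38.3%, by a median of 2.28 on the log2 scale. Their summed level ranged from 1163 to 1280 CPM in control and from 208 to 271 CPM in piceatannol libraries. Their part in the falls described here was not tested.

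The libraries held between 33276569 and 58697084 counts, and each of the 42 genes had between 136 and 24645 counts in a library. All 10 macrophage markers were present, with Lyz2, Itgam and Csf1r among the abundant ones in control libraries. With piceatannol 8 of the 10 fell, among them Fcgr1 (10.2-fold), Itgam (4.37-fold) and Adgre1 (3.96-fold). The other 2, Cd14 (3.8-fold) and Cd68 (2.16-fold), rose. The macrophage markers summed to between 19556 and 23509 CPM in control and between 13779 and 15205 CPM in piceatannol libraries. Lyz2 carried most of that sum. Markers of other cells moved as well. For each of these marker lists the background is 38.3% for falls and 38.8% for rises. The 6 stromal markers summed to between 2188 and 2432 CPM in control and between 501 and 564 CPM in piceatannol libraries, with 4 falls and 1 rise, and the collagen genes carried most of the sum. That rise was lost without control replicate 3 or piceatannol replicate 1, leaving 0. The 10 neutrophil markers summed to between 259 and 604 CPM in control and between 34.9 and 42.8 CPM in piceatannol libraries, with falls for all 8 that were tested. These falls numbered 6 to 8 when each library was left out, and the groups overlapped for Mpo. Of 9 tested dendritic cell markers 7 fell and 1 rose, from sums of 2103 to 2267 CPM to sums of 836 to 1040 CPM, and the rise was lost without piceatannol replicate 1 or 3. Of 6 progenitor markers 5 fell and 1 rose, and 3 fell without piceatannol replicate 1. Their sums ranged from 97.3 to 114 CPM in control and from 76.4 to 93.5 CPM in piceatannol libraries, but Cd34 fell from 69.3 ± 6.85 to 0.925 ± 0.186 CPM while Kit rose from 21.5 ± 2.72 to 74.4 ± 9.40 CPM (SD, n = 3 each). The 8 B and T cell markers summed to at most 3.54 CPM in any library, and Ncr1 was at 0 in all. The share of counts from mitochondrially encoded genes was 0.82% ± 0.0447 (SD, n = 3) in control and 2.15% ± 0.431 (SD, n = 3) in piceatannol libraries. The part of these differences in the results on ribosome biogenesis genes was not tested.

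Promoters were examined because these genes fell together and because MYC and its partner MAX are known to bind the letters CACGTG (the E-box). RefSeq promoter entries of GRCm38.p6, each 250 bases before to 50 bases after a transcript start, were found for 37 of the 42 genes. Of the 37, 9 genes (24.3%) held at least 1 CACGTG, which reads the same on both strands, against 1253 of 10901 tested genes with an entry (11.5%). A gene can have several entries. By entry, 9 of 44 (20.5%) held CACGTG, against 9.65% of the entries of tested genes and 7.15% of all 32851 entries. The 9 genes held 10 copies, 3 before and 7 after the start. They are shown here with up to 12 flanking bases on each side, in the direction of the gene, with the E-box in capitals and its first base counted from the start.
Rrn3 at -215, chr16:13780472-13780501 (+): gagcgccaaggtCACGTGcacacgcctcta
Nop2 at -60, chr6:125131811-125131840 (+): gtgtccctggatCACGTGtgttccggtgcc
Rrn3 at -48, chr16:13780639-13780668 (+): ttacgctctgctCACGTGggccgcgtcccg
Pes1 at 3, chr11:3963965-3963994 (+): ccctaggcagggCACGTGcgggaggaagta
Utp4 at 16, chr8:106893643-106893672 (+): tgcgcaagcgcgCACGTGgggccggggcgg
Wdr43 at 18, chr17:71616220-71616249 (+): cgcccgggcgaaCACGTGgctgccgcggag
Tsr1 at 25, chr11:74898092-74898121 (+): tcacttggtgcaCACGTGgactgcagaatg
Ltv1 at 29, chr10:13193092-13193121 (-): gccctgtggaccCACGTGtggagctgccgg
Utp20 at 38, chr10:88826765-88826789 (-): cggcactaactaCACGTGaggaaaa
Mybbp1a at 41, chr11:72441355-72441376 (+): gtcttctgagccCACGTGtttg

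Of these 9 genes 7 fell, Utp4 rose and Rrn3 did not pass the threshold. Of the 28 genes with an entry but no CACGTG 20 fell, and the difference was not tested. Falls made up 76.2% of the 42 genes, and among all genes tested 38.3% fell and 38.8% rose. A match is a description of letters and not evidence of binding. Nop2 and Rrn3 are the genes with a copy before the start, and longer upstream stretches of both are shown for that reason. The Rrn3 stretch surrounds its copy at -215 and does not reach its other copy at -48. Both are from the plus strand of GRCm38.p6, at chr6:125131763-125131882, which ends at the last base before the start, and at chr16:13780449-13780549, with the E-box in capitals.
Nop2: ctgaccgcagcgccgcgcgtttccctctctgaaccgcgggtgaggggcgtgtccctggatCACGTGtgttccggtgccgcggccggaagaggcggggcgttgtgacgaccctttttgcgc
Rrn3: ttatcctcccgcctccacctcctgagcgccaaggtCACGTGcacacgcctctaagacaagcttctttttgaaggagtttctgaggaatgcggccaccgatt

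The ETS family letters CCGGAAG, present in the Nop2 stretch, were searched on both strands. They were found for 12 of the 37 genes (32.4%) and for 19% of tested genes with an entry. By entry, the shares were 27.3% for the 37 genes, 16.3% for tested genes and 8.86% for all entries. A palindromic NRF1 motif, named here without its letters, was found for 0 of the 37 and for 2.2% of tested genes (0.971% of all entries). The gene of MYC itself had 69, 72 and 76.6 CPM in control and 62.5, 74.8 and 61.3 CPM in piceatannol libraries. Those groups overlap, and the log2 fold change of Myc, -0.13 with a 95% interval of -0.29 to 0.02, did not pass the threshold (adjusted p = 0.111 by the edgeR quasi-likelihood test). The value for Max, 0.09, did not pass either.

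**Figure D2:**
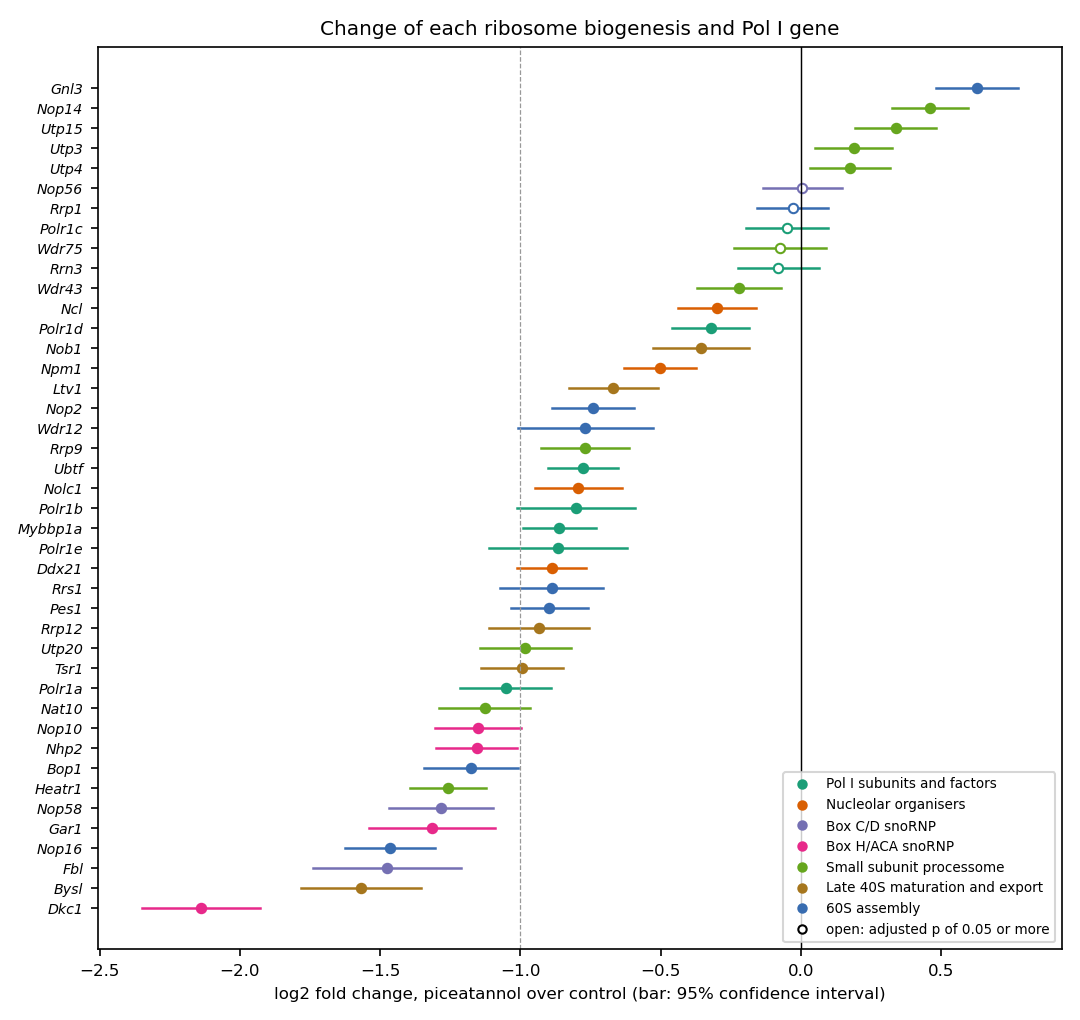
log2 fold change of each of the 42 genes, piceatannol over control, ordered by size and coloured by role; bars are 95% confidence intervals from the edgeR fit and open circles did not pass the threshold. Values run from -2.14 for Dkc1 to 0.63 for Gnl3, and the dashed line marks a 2-fold fall.

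Among Pol I and its factors 6 of 8 genes fell (75%, where the background is 38.3%) and Polr1c and Rrn3 did not pass the threshold. The median log2 fold change of the 8 was -0.79. Polr1a, which encodes the largest catalytic subunit (GRCm38 chromosome 6, 71909053 to 71984935), had 41.2, 47 and 39.6 CPM in control and 19.9, 20.5 and 21.1 CPM in piceatannol libraries. The groups were far apart, with a 2.08-fold fall (log2 fold change -1.05 ± 0.08, SE; adjusted p = 1.61e-10 by the edgeR quasi-likelihood test). Polr1b, of the other catalytic subunit, fell by 0.80 on the log2 scale, and Polr1e, of a peripheral Pol I subunit, by 0.87. Polr1c and Polr1d encode subunits that Pol I shares with RNA polymerase III. Polr1c had 38.9, 42.2 and 40.8 CPM in control and 36.9, 39 and 41.7 CPM in piceatannol libraries, which overlap, and its log2 fold change of -0.05 had a 95% interval of -0.20 to 0.10 (adjusted p = 0.521 by the edgeR quasi-likelihood test). Polr1d fell by 0.32 on the log2 scale, and is uncertain because 10.8% of the 50-base windows of its transcripts also occur in transcripts of another gene. As a description, the log2 ratio of Polr1a to Polr1c normalised counts was 0.08, 0.15 and -0.04 in control and -0.89, -0.92 and -0.99 in piceatannol libraries.

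Among the initiation and accessory factors, Mybbp1a, which encodes a nucleolar protein that binds Pol I (chromosome 11, 72441355 to 72451768), had 165, 178 and 158 CPM in control and 88.3, 95.2 and 91.5 CPM in piceatannol libraries. All piceatannol values were below all control values, a 1.82-fold fall (log2 fold change -0.86 ± 0.06, SE; adjusted p = 9.23e-11 by the edgeR quasi-likelihood test). Ubtf, the gene of the HMG-box factor UBF that coats active ribosomal DNA, fell 1.71-fold from 143 ± 6.41 to 83.5 ± 2.47 CPM (SD, n = 3 each). Rrn3 encodes TIF-IA, which brings Pol I to its promoter and is known as a point of growth control. Its values of 40.3, 38.9 and 37 CPM in control and 36.5, 38.3 and 35.1 CPM in piceatannol libraries overlapped, and its log2 fold change of -0.08 had a 95% interval of -0.23 to 0.06 (adjusted p = 0.292 by the edgeR quasi-likelihood test).

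All 4 genes of proteins that organise the nucleolus fell, where the background is 38.3%, by a median of 0.65 on the log2 scale. Ddx21, of an RNA helicase that acts in Pol I transcription and rRNA processing (chromosome 10, 62580251 to 62602281), had 161, 159 and 147 CPM in control and 84.2, 82.9 and 85.3 CPM in piceatannol libraries. The 3 piceatannol values were tight and well below control, a 1.85-fold fall (log2 fold change -0.89 ± 0.06, SE; adjusted p = 2.87e-11 by the edgeR quasi-likelihood test). Nolc1, of a protein that assists snoRNP assembly, fell 1.73-fold. Npm1, of the nucleolar chaperone nucleophosmin, fell 1.42-fold, and Ncl, of nucleolin, fell 1.23-fold from 455 ± 36.6 to 370 ± 14.8 CPM (SD, n = 3 each). Npm1 is uncertain because 24.3% of the 50-base windows of its transcripts also occur in transcripts of other genes.

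Genes of the box H/ACA snoRNP, the particle that turns uridines of rRNA into pseudouridine, gave the largest fall among the 42 genes. All 4 core genes fell more than 2-fold, where the background is 16.6%. Dkc1 encodes dyskerin, the pseudouridine synthase, which also holds telomerase RNA (chromosome X, 75095854 to 75109777). It had 32.4, 32.5 and 27.7 CPM in control and 6.91, 7.9 and 6.31 CPM in piceatannol libraries. That is a 4.4-fold fall (log2 fold change -2.14 ± 0.10, SE; adjusted p = 1.12e-13 by the edgeR quasi-likelihood test), and 5.43% of all genes tested had a lower log2 fold change. The partner genes fell by similar amounts to each other: Gar1 2.49-fold, Nhp2 2.23-fold and Nop10 2.22-fold. Nhp2 went from 70.5, 81.5 and 72.5 CPM in control to 32.5, 34.1 and 34.1 CPM in piceatannol libraries, and Nop10 from 36.9, 37 and 36.3 to 16.3, 17 and 16.3 CPM. Per length, the control levels were 65.3 FPKM for Nhp2, 33.1 for Nop10, 10.5 for Gar1 and 7.49 for Dkc1, and in piceatannol libraries the order was kept, at 28.8, 14.7, 4.12 and 1.68 FPKM.

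Genes of the box C/D snoRNP, the particle that methylates rRNA riboses, did not move alike. Nop58 and Nop56 encode the paired scaffold proteins of that particle. Nop58 (chromosome 1, 59684971 to 59719044) had 61.6, 60.3 and 50.9 CPM in control and 26.4, 21.6 and 22.9 CPM in piceatannol libraries, a 2.43-fold fall (log2 fold change -1.28 ± 0.09, SE; adjusted p = 1.55e-10 by the edgeR quasi-likelihood test). Nop56 (chromosome 2, 130274430 to 130279313) had 54.9, 57.3 and 57 CPM in control and 58.5, 51.4 and 59.8 CPM in piceatannol libraries. The Nop56 groups overlapped, with a log2 fold change of 0.01 and a 95% interval of -0.14 to 0.15 (adjusted p = 0.948 by the edgeR quasi-likelihood test). As a description, the log2 ratio of Nop58 to Nop56 normalised counts was 0.17, 0.07 and -0.17 in control and -1.15, -1.25 and -1.39 in piceatannol libraries. Fbl, of the methyltransferase fibrillarin, had 10.2, 11.3 and 9.9 CPM in control and 3.8, 4.12 and 3.42 CPM in piceatannol libraries, a 2.78-fold fall (log2 fold change -1.48 ± 0.13, SE; adjusted p = 1.35e-09 by the edgeR quasi-likelihood test). Fbl and Nop56 are uncertain, since 19.7% and 16.5% of their 50-base windows also occur in transcripts of other genes, and the Fbl level was 2.49 FPKM in control against a median of 13.9 FPKM over the 42 genes.

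**Figure D3:**
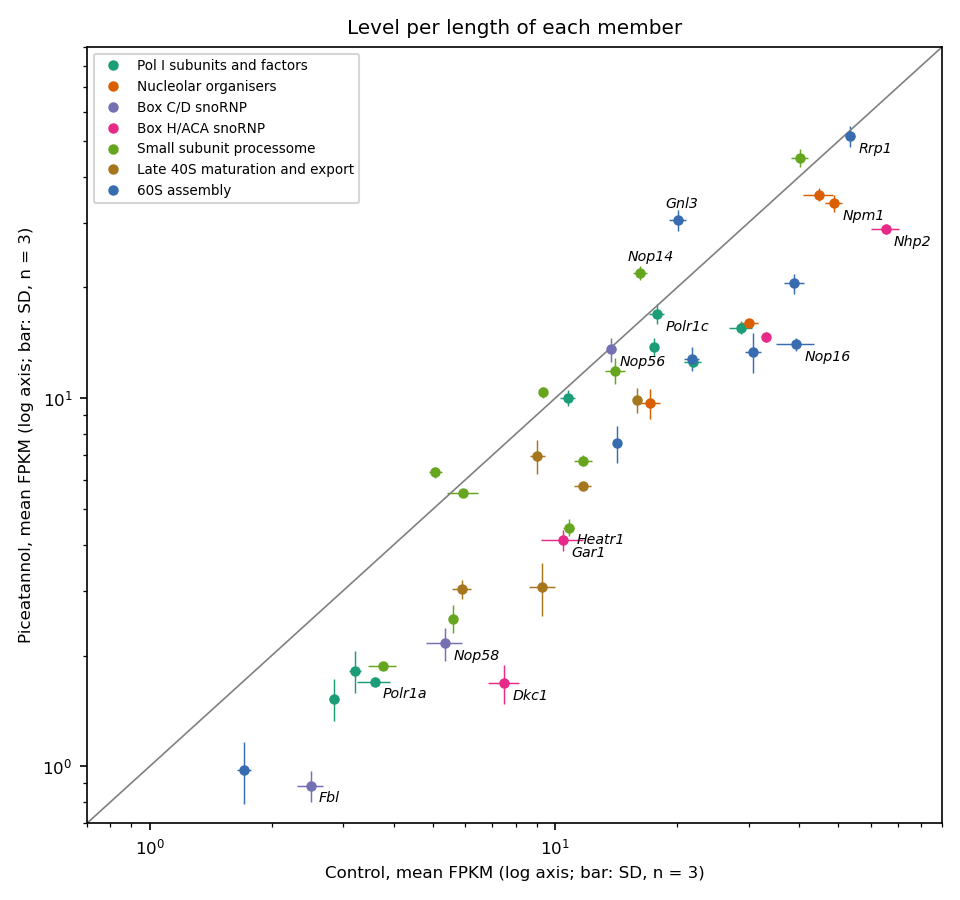
Mean FPKM (a level per transcript length and library size) of each of the 42 genes in control and piceatannol libraries on log axes, coloured by role, with bars for the SD over 3 libraries; the line marks equal levels. Control means run from 1.71 FPKM for Wdr12 to 65.3 for Nhp2, and points below the line, such as Dkc1, were lower with piceatannol.

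Of the 10 genes of the small subunit processome 5 fell (50%), 4 rose (40%) and Wdr75 did not pass, shares near the background of 38.3% and 38.8%. Their median log2 fold change was -0.15, and without control replicate 3 the rises numbered 2. Heatr1, Wdr43, Wdr75, Utp4 and Utp15 belong to UTP-A, a sub-complex that joins the precursor early. Heatr1 (chromosome 13, 12395027 to 12440289) had 87.2, 81.8 and 84.5 CPM in control and 34.3, 37.4 and 34.4 CPM in piceatannol libraries, a 2.39-fold fall (log2 fold change -1.26 ± 0.06, SE; adjusted p = 4.63e-13 by the edgeR quasi-likelihood test). Wdr43 had 49.9, 50.3 and 45.3 CPM in control and 42.8, 44.1 and 38 CPM in piceatannol libraries, a 1.17-fold fall (adjusted p = 0.0093 by the edgeR quasi-likelihood test), which was lost without piceatannol replicate 3 (adjusted p = 0.062). Wdr75 had 32, 27.6 and 27.5 CPM in control and 28.2, 26.9 and 27.6 CPM in piceatannol libraries, with overlap and a 95% interval of the log2 fold change from -0.24 to 0.09 (adjusted p = 0.389 by the edgeR quasi-likelihood test). Utp15 rose 1.26-fold, from 28.9, 30.8 and 29.3 CPM in control to 38.9, 36.3 and 37 CPM, with all piceatannol values on top (adjusted p = 0.000189 by the edgeR quasi-likelihood test). Utp4 had 32.1, 32.7 and 31.9 CPM in control and 37.9, 35.8 and 35.6 CPM in piceatannol libraries, a 1.13-fold rise near the threshold (adjusted p = 0.0248 by the edgeR quasi-likelihood test). Its call was lost without control replicate 1 (adjusted p = 0.0741), without control replicate 3 (0.0828), without piceatannol replicate 1 (0.0826), with scaling by library totals (0.0569) and with no filter (0.113).

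Outside UTP-A, Nop14, of a scaffold protein of the processome (chromosome 5, 34638536 to 34660148), rose 1.37-fold. Its values were 43.7, 45.9 and 42.9 CPM in control and 63.3, 57.5 and 61.1 CPM in piceatannol libraries, with no overlap (log2 fold change 0.46 ± 0.07, SE; adjusted p = 2.26e-06 by the edgeR quasi-likelihood test). Utp3, of another processome component, had 68.4, 65.7 and 62.1 CPM in control and 73.8, 70.3 and 79.2 CPM in piceatannol libraries, a 1.14-fold rise (adjusted p = 0.0136 by the edgeR quasi-likelihood test). The Utp3 call was lost without control replicate 3 (adjusted p = 0.0861) and without piceatannol replicate 3 (0.0763). Nat10, of the enzyme that acetylates small-subunit rRNA, fell 2.19-fold from 40.3 ± 0.988 to 18.4 ± 1.57 CPM (SD, n = 3 each). Utp20 fell by 0.98 on the log2 scale and Rrp9, of a protein bound to the U3 snoRNA, by 0.77.

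The 5 genes of late small-subunit maturation and export all fell, where the background is 38.3%, by a median of 0.93 on the log2 scale. Bysl, of the assembly factor bystin (chromosome 17, 47599331 to 47611492), had 34.1, 38.7 and 34.5 CPM in control and 11, 10.7 and 14.3 CPM in piceatannol libraries. The groups were widely separated, a 2.97-fold fall (log2 fold change -1.57 ± 0.10, SE; adjusted p = 6.07e-11 by the edgeR quasi-likelihood test). Bysl shares 361 exonic bases with Ccnd3 on the other strand, which also fell. Of the 42 genes 15 share exonic bases with a gene on the other strand, and the kit named in the labels does not mark strand, so reads there cannot be told apart. Tsr1, of a GTPase-like factor that occupies the immature small subunit, fell 1.99-fold, and shares 1240 exonic bases with Srr on the other strand, which rose by 0.35 on the log2 scale. Rrp12, of an export factor, fell 1.91-fold, and Ltv1, of a factor that leaves the particle late, fell 1.59-fold. Nob1, of the endonuclease that makes the mature end of the small-subunit rRNA, fell 1.28-fold from 31.5 ± 1.29 to 24.6 ± 2.53 CPM (SD, n = 3 each).

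Of the 8 genes of large-subunit assembly 6 fell (75%, where the background is 38.3%), Gnl3 rose and Rrp1 did not pass. Their median log2 fold change was -0.83. Nop16, of a nucleolar large-subunit factor (chromosome 13, 54584185 to 54590090), had 69.5, 81 and 66.9 CPM in control and 25.3, 27.1 and 26.4 CPM in piceatannol libraries. Every piceatannol value was far below control, a 2.76-fold fall (log2 fold change -1.47 ± 0.08, SE; adjusted p = 5.25e-13 by the edgeR quasi-likelihood test). The genes of the PeBoW complex, which is needed to process the large-subunit rRNA, fell together: Bop1 2.26-fold, Pes1 1.86-fold and Wdr12 1.7-fold. Pes1 has 20.4% of its 50-base windows in common with other transcripts and is uncertain. For Wdr12 and Rrs1 that share is smaller, at 6.04% and 6.3%. Nop2, of an rRNA cytosine methyltransferase whose promoter is printed above, fell 1.67-fold from 60.2 ± 2.47 to 36 ± 2.69 CPM (SD, n = 3 each), and Rrs1 fell 1.85-fold.

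Gnl3 encodes nucleostemin, a nucleolar GTPase known from stem and proliferating cells (chromosome 14, 31012433 to 31019152). It had 39.8, 36.7 and 36.6 CPM in control and 61.7, 53.8 and 59.3 CPM in piceatannol libraries, the largest rise of the 42 genes at 1.55-fold (log2 fold change 0.63 ± 0.07, SE; adjusted p = 7.35e-08 by the edgeR quasi-likelihood test). Rrp1 had 173, 180 and 181 CPM in control and 172, 165 and 187 CPM in piceatannol libraries. The Rrp1 groups overlapped, and its log2 fold change of -0.03 had a 95% interval of -0.16 to 0.10 (adjusted p = 0.667 by the edgeR quasi-likelihood test).

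Some of these genes hold snoRNA genes within their bounds, a feature not used to choose them. Whether these lie in introns was not checked, and some, such as Snord57 in Nop56, share annotated exon bases with the host gene. In GENCODE M21, 7 of the 42 genes hold at least 1 annotated snoRNA gene on the same strand: Nop56 holds 5, Nop58 4, Gnl3, Ncl and Wdr43 3 each, Tsr1 2 and Dkc1 1. Of these 7 genes 5 fell, Gnl3 rose and Nop56 did not pass, and the median log2 fold change was -0.30. The other 35 genes had 27 falls and 4 rises and a median of -0.80, a difference that was not tested. Non-coding host genes of snoRNAs, a separate list, went mostly upward. Of 14 tested, 10 rose (71.4%) and 1 fell (7.14%), where the background is 38.8% and 38.3%. The median log2 fold change of the 14 was 0.73. Snhg12 (1.70) and Snhg5 (1.45) had the highest log2 fold changes, and Gas5 rose 1.8-fold from 108 ± 4.96 to 195 ± 6.70 CPM (SD, n = 3 each). Snhg4 (-1.05) was the host gene that fell, from a low mean of 3.03 CPM in control to 1.47 CPM in piceatannol libraries. Host genes that fell numbered 0 to 2 under the alternative ways of processing.

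**Figure D4:**
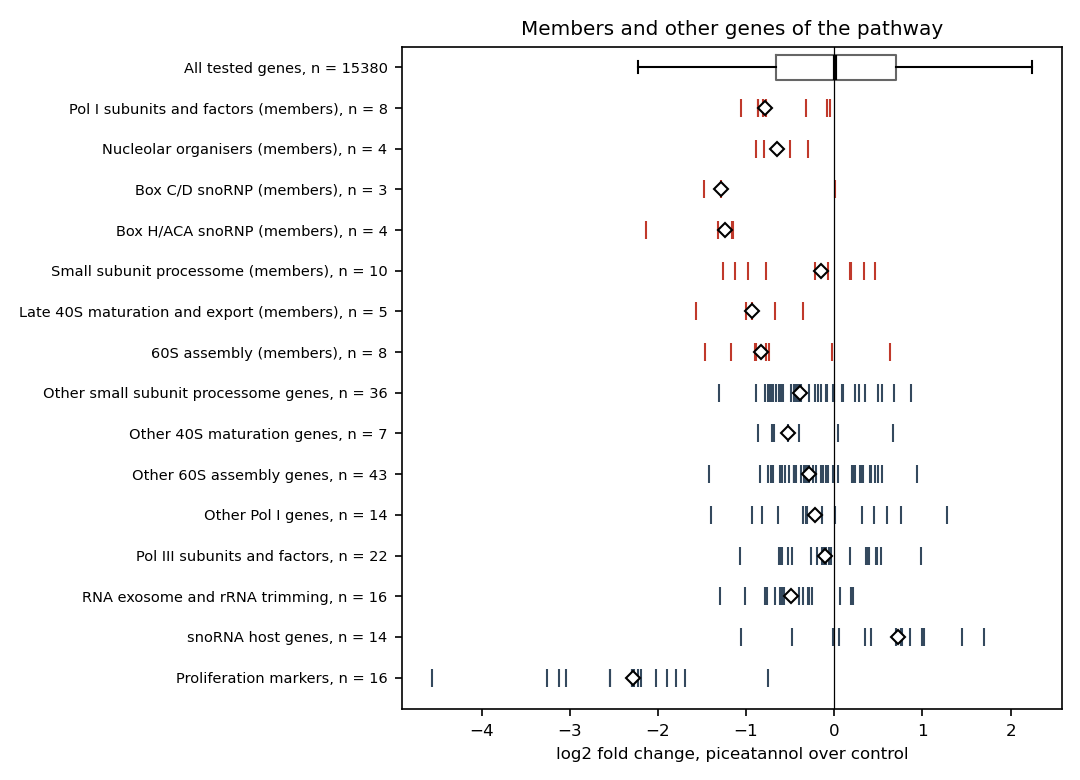
log2 fold change, piceatannol over control, of the 42 genes by role (red ticks) and of other genes of the pathway and proliferation markers (dark ticks), with a diamond at each median; the top box shows all 15380 genes tested (median, quartiles, and 5th to 95th percentile). Medians lie below 0 for every role and pathway list shown, between -1.28 and -0.10, and above 0 for snoRNA host genes.

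Other genes of the pathway, in 6 lists chosen by function with 138 tested genes, also had more falls than rises. Falls numbered 79 of 138 (57.2%) and rises 33 (23.9%), where the background is 38.3% and 38.8%. The median log2 fold change was -0.29. In the small subunit processome list 23 of 36 fell and 7 rose, with Wdr46 (-1.30) and Nol6 (-0.89) lowest and Krr1 (0.87) and Utp23 (0.67) highest. In the list of other small-subunit maturation genes 5 of 7 fell, with Nol7 at -0.87 and Tsr2 at -0.70, and Tsr3 (0.66) rose. In the large-subunit list 24 of 43 fell and 12 rose. There Rrp15 (-1.43) and Ebna1bp2 (-0.84) were lowest, and Sbds (0.94) and Nmd3 (0.54), of late cytoplasmic maturation and of nuclear export, were highest. In the RNA exosome and trimming list, whose products shorten rRNA ends, 13 of 16 fell and Exosc4 (0.21) rose, with C1d at -1.29 and Exosc5 at -1.01.

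Of 14 other Pol I genes 6 fell (42.9%) and 5 rose (35.7%), shares near the background of 38.3% and 38.8%. The shared subunit genes Polr2l (-1.40) and Polr2f (-0.94) were lowest, and Tcof1, of the Pol I cofactor treacle, fell by 0.82. The highest were Taf1a (1.28), of the promoter selectivity factor, and Ttf1 (0.75), of the Pol I terminator protein. Of 22 Pol III genes 8 fell and 7 rose, shares close to the background, with Polr3k (-1.07) and Gtf3a (-0.63) lowest. Brf2 (0.99) and Maf1 (0.53), the gene of the Pol III repressor, were highest. Among genes known to regulate rRNA synthesis, Kdm2b (-0.91) and Rptor (-0.37) fell, while Mtor (0.06), Baz2a (-0.01), Sirt7 (0.12), Rb1 (0.07) and Kdm2a (0.11) did not pass; Mycn was too low to test.

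RNA rows from the ribosomal and nucleolar machinery were read with caution, because the kit selects polyadenylated RNA, which most of these are not. Gm42418, which RefSeq also lists as an 18S rRNA-related sequence (Rn18s-rs5), had 811, 944 and 1223 CPM in control and 1234, 1179 and 1144 CPM in piceatannol libraries. Its groups overlapped and its log2 fold change of 0.26 did not pass the threshold (adjusted p = 0.109 by the edgeR quasi-likelihood test). Gm26917, a predicted gene, had 63.8, 59.9 and 57.3 CPM in control and 606, 504 and 569 CPM in piceatannol libraries, a 9.28-fold rise (adjusted p = 2.68e-18 by the edgeR quasi-likelihood test). Rpph1, the RNA of ribonuclease P, rose 1.79-fold from 2.98 ± 0.311 to 5.29 ± 0.527 CPM (SD, n = 3 each). Rmrp, the RNA of the related enzyme that cuts the rRNA precursor, had 6, 1 and 17 counts in control and 50, 20 and 49 counts in piceatannol libraries, a rise (adjusted p = 9.54e-05 by the edgeR quasi-likelihood test) that rests on few reads. The mitochondrial share, given above, was higher in the piceatannol libraries, as were Gm26917, Rpph1 and Rmrp, while Gm42418 did not pass the threshold. The part of that share in the values of these rows was not tested.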

How the data were processed

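Raw counts by gene symbol and FPKM values for the same genes were deposited by the authors, each with 1 column per library. The submitters' processing notes name bcl2fastq, STAR, featureCounts and DESeq2 with builds mm10 and GRCm38, and give no versions. The sources used here do not give the annotation, the strand setting or the treatment of multiply mapped reads. The genes and lists were chosen with earlier results of these data known. Counts were tested in R 4.3.3 with edgeR 4.0.16: filterByExpr (minimum count 10), TMM, robust quasi-likelihood fit and test without covariates, two-sided, Benjamini-Hochberg over 15380 genes, threshold 0.05. SE is the log2 fold change divided by the square root of F. CPM uses TMM-scaled totals. limma 3.58.1 and DESeq2 1.42.0 gave alternatives. The test was first checked on simulated counts. The labels number replicates alike in both groups; same-numbered libraries deviated together (r = 0.28, 0.17 and 0.23 across genes), so a fit with the replicate block was run. Libraries of a group differed beyond sampling noise (chi-square per degree of freedom 13.5 to 25.7). Positions, exon overlaps, snoRNA genes and 50-base windows come from GENCODE M21 (GRCm38), and promoter sequences and synonyms from RefSeq (GRCm38.p6). Per-library values were named for the smallest p and the largest change in each role and for genes that rose or did not pass. In each list of other pathway genes, the 2 lowest called genes and up to 2 of the highest that rose were named. The marker lists did not follow that rule. The E-box windows, the ratios between genes, Gas5, Tcof1 and the additional values of other members were chosen after their values were seen. One gene of the regulator list is not reported here.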

Additional observations from a re-analysis of the deposited data

How the results depend on the processing

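The 42 genes kept their call in 746 of 756 comparisons (42 genes under 18 alternatives), and no called gene changed sign. Nop56, Polr1c and Rrp1, which did not pass the threshold, changed sign under some alternatives. The 10 lost calls concern Utp4, Utp3 and Wdr43. The number called was 35 to 37 and the number that fell 31 to 32. The number that rose was 5, with 4 when scaled by library totals only, 4 with no filter, 3 at an adjusted p threshold of 0.01, and 3 to 5 when each library was left out. Progenitor markers that fell, 5 in all, numbered 2 with a filter of CPM of at least 5 in 3 libraries. The median log2 fold change of the 42 genes, -0.80, was -0.75 with upper-quartile factors, -0.74 with a filter of CPM of at least 5 in 3 libraries, -0.72 by limma on log2(FPKM + 1), and -0.86 to -0.78 when each library was left out. The all tested genes median log2 fold change was 0.0643 with upper-quartile factors and 0.0848 with no filter, and 0.00191 to 0.0311 when each library was left out. With the replicate block 32 genes fell and 5 rose, and the block changed no call among the 42. Small counts in the lists moved: exosome genes that rose numbered 1, and 0 to 2 when each library was left out. Neutrophil markers that fell numbered 8, and as few as 4 among the alternatives. B and T cell markers that fell numbered 4, and as few as 0. The alternatives include the stricter filter on CPM, so low genes can leave the test. Precision of low genes such as Fbl and Rmrp is limited by depth.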
